A study of Rattus norvegicus with 2 samples.

Results

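The genes of the proteasome were compared between colony No.4 and colony No.8, a pair of single colonies of the rat glioma line C6. Members were all genes whose symbol begins with Psma, Psmb, Psmc, Psmd, Psme, Psmf or Psmg followed by a number, and whose array feature carried exactly 1 gene symbol. The rule gave 48 genes of the 18171 measured. Of these, 43 encode subunits, assembly chaperones, activators or an inhibitor of the proteasome, and the other 5 are pseudogenes, a copy gene or interacting proteins that share the name. Another 5 genes of the system, Psma3, Psma8, Psmd10, Psme3 and Psmg3, had no feature with exactly 1 symbol and were not analysed here.

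The proteasome degrades proteins that carry ubiquitin. Its core particle is a barrel of stacked rings: outer rings of alpha subunits that gate the entrance, and inner rings of beta subunits, of which Psmb5, Psmb6 and Psmb7 cut peptides. The regulatory particle caps the barrel. Its base holds a ring of ATPases that unfold substrates, and its lid removes ubiquitin. In immune cells, and in many other cells after interferon, Psmb8, Psmb9 and Psmb10 replace the cutting subunits Psmb5, Psmb6 and Psmb7 to form the immunoproteasome, which favours peptides that class I molecules of the major histocompatibility complex can present. Glial cells of the healthy brain have little immunoproteasome.

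Total RNA of each colony was measured on a whole-transcript array, and the colony number was the only label that set the arrays apart. Both colonies were called undifferentiated, and both carried the same treatment text of 20 µM CHIR99021, a GSK3 inhibitor, with 100 µM forskolin, which raises cyclic AMP, for 35 days. Whether the RNA was taken before or after that treatment is not stated. Cells were grown in medium with 10% fetal bovine serum. Each group is 1 colony on 1 array, so differences between colonies, cultures and arrays cannot be told apart. Without replicate arrays no test could be made, and every value is a single measurement whose precision is limited by the number of arrays. Levels are deposited values on a log2 scale, and a difference is always colony No.8 minus colony No.4. A gene was counted when it reached 4.33, the median of all values, in at least 1 colony, and 11070 genes did. A gene was called apart at 1.5-fold. Of the labelled cell type's markers, Vim, Nes, S100b, Sox2, Cd44 and Gja1 passed that floor in both colonies and Gfap in colony No.8 alone, while Slc1a3 and Fabp7, both astrocyte genes, were below it in both. Markers also differed between the colonies, in both directions. Of the 7 glioma and astrocyte markers past the floor, 4 were higher in colony No.8 and 3 in colony No.4. Gja1 was 2.18-fold and Sox2 1.56-fold higher in colony No.4, and Gfap (4.11 and 5.17) was 2.07-fold higher in colony No.8. The oligodendrocyte lineage gene Olig2 (6.36 and 4.22) was 4.41-fold higher in colony No.4. The endothelial gene Tek (4.84 and 5.97) was 2.19-fold higher in colony No.8. Olig2 in colony No.8 and Tek in colony No.4 lay below 5.67, the 99th percentile of olfactory receptor genes, a guide to background. Raised to 5.67, the differences of Olig2 and Tek were -0.69 and 0.30. Gfap lay below 5.67 in both colonies. The oligodendrocyte genes Mbp and Mog differed by -0.04 and -0.11, and the endothelial genes Cdh5 and Vwf were below the floor. The part of these marker differences in the proteasome values was not tested.

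Proteasome genes were slightly higher in colony No.8 as a group, and few were much apart. Of the 43 genes, 42 passed the floor, each in both colonies, and the thymus subunit Psmb11 did not. Of the 42, 32 were higher in colony No.8, 8 were higher in colony No.4 and 2 had the same deposited value in both. The share higher in colony No.8 was 76.2%, given as a description, since genes are not replicates. Over all genes past the floor this share was 53.2%, with 45.5% higher in colony No.4, and over the 2675 genes that reached 8 in at least 1 colony it was 47.5%. The median difference was 0.09 (1.06-fold), against 0.04 over all genes past the floor and 0.02 over the 5276 genes in the mean level range of the core and regulatory subunits.

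At 1.5-fold, 6 of the 42 genes were higher in colony No.8 and 0 were higher in colony No.4. The 6 are 14.3% of the members, near the background: 9.87% of all genes past the floor were that much higher in colony No.8 and 7.93% that much higher in colony No.4. The 6 genes were the immunoproteasome subunit Psmb10, the ATPases Psmc2, Psmc4 and Psmc5, the assembly chaperone Psmg1 and the activator subunit Psme2. Only Psmb10 reached 2-fold, where the background higher in colony No.8 was 2.91%. Its level in colony No.4, 5.20, was low, and with levels raised to 5.67 its difference was 0.75, short of 2-fold. With 64 added on the linear scale it was 0.57, short of 1.5-fold. Most members lay close together: 30 of the 42, or 71.4%, differed by less than 0.25, against 47.8% of all genes past the floor. Differences of 0.25 or more towards colony No.8 were found for 11 members (26.2%, against 29.4% of all genes), and towards colony No.4 for 1 member, Psmd5 (2.38%, against 22.8% of all genes). The cumulative plot shows this shape, with fewer members far below 0 than among the other genes and the curves close together from about 0.1 up.

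**Figure D1:**
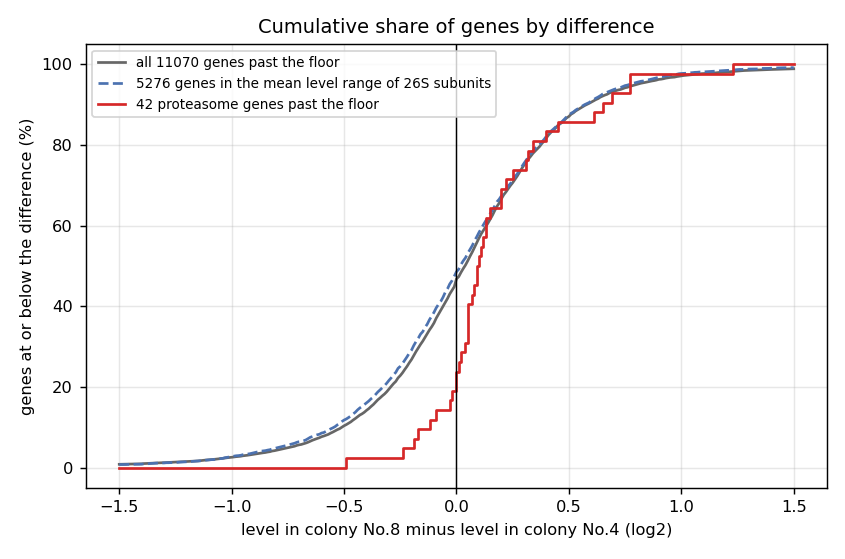
Cumulative share of genes (vertical axis, %) by the difference between the colonies (horizontal axis, log2, colony No.8 minus colony No.4) for the 42 proteasome genes past the floor, all 11070 genes past the floor, and the 5276 genes in the mean level range of the core and regulatory subunits. The curve of the proteasome genes starts at -0.49 and runs below the others up to about 0.1, then close to them.

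**Figure D2:**
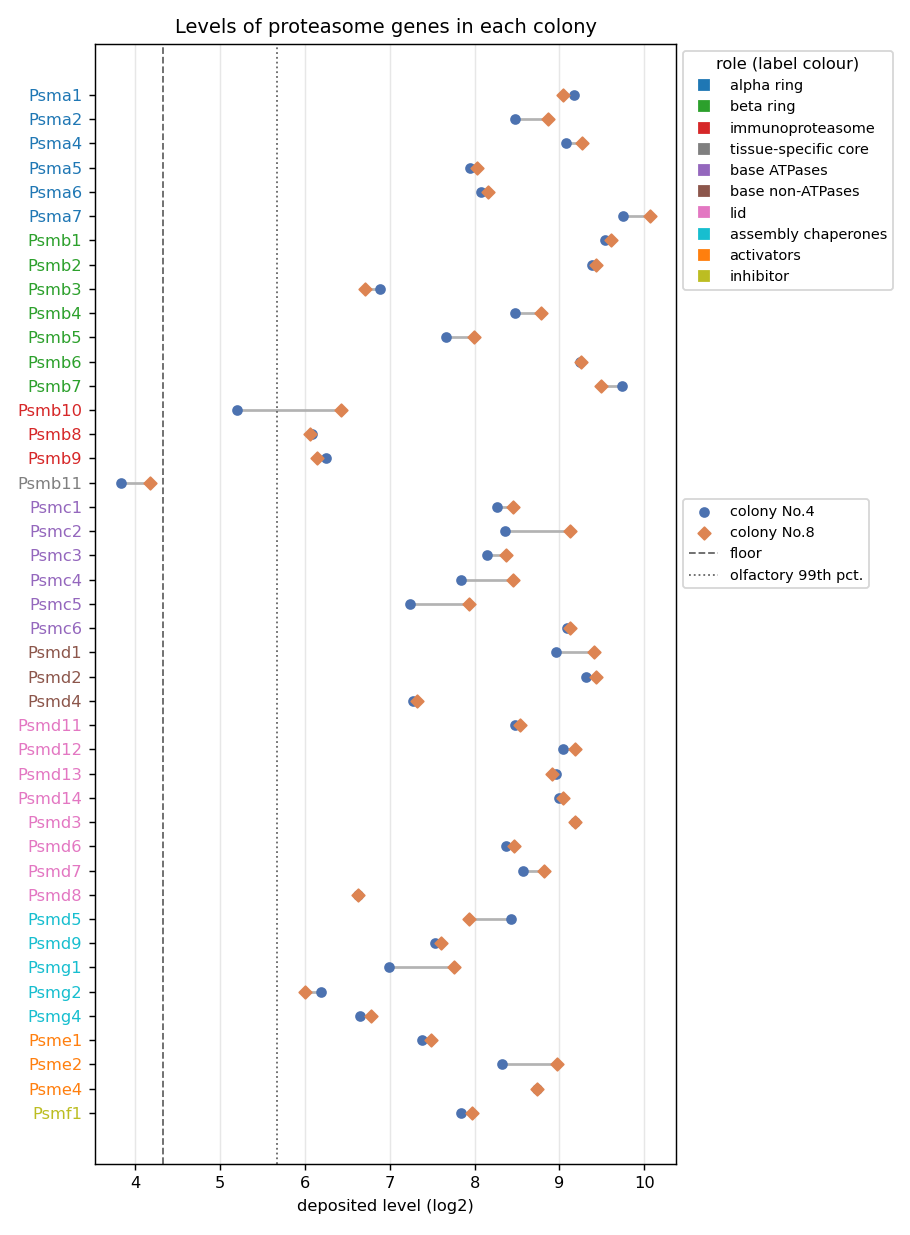
Deposited log2 level (horizontal axis) of each of the 43 measured proteasome genes in colony No.4 (circles) and colony No.8 (diamonds), 1 array each, with gene names coloured by role; the dashed line is the floor of 4.33 and the dotted line is 5.67, the 99th percentile of olfactory receptor genes. Psmb10, at 5.20 and 6.42, has the longest line between its colonies, and Psmb11 is the only gene below the floor. Levels of different genes come from different probes and are not compared.

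The core particle differed little. Its 13 measured alpha and beta subunits, the immunoproteasome and tissue-specific ones apart, had differences between -0.25 and 0.39 with a median of 0.08. Of the 13, 10 were higher in colony No.8 (76.9%, against 53.2% of all genes past the floor). None reached 1.5-fold, against 17.8% of all genes past the floor in either direction. In the alpha ring, 5 of 6 subunits were higher in colony No.8 (median 0.14). Psma2 had a level of 8.48 in colony No.4 against 8.87 in colony No.8, the highest difference of the ring at 0.39. Psma7 followed, at 9.75 and 10.06. Psma1 was the only alpha subunit higher in colony No.4, at 9.17 and 9.04. The remaining alpha subunits Psma4, Psma5 and Psma6 differed by 0.19, 0.09 and 0.08.

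In the beta ring 5 of 7 subunits were higher in colony No.8 (71.4%, against 53.2% of all genes past the floor), with a median of 0.04. The 3 cutting subunits did not share a direction. Psmb5, which has the chymotrypsin-like activity, was at 7.66 and 7.99 (difference 0.33). Psmb6, with the caspase-like activity, was at 9.25 and 9.26. A second Psmb6 feature, at 9.0 and 8.90, had the opposite sign (-0.10), so the sign of that gene is not settled. Psmb7, with the trypsin-like activity, was at 9.74 and 9.5 (-0.25), the lowest of the ring. Among the structural beta subunits, Psmb4 was at 8.47 and 8.78, Psmb1 and Psmb2 differed by 0.08 and 0.04, and Psmb3 by -0.18. Psmb3 has many annotated copies in the rat genome, and whether they share signal with its feature was not tested.

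The immunoproteasome subunits differed from each other. Psmb10 had a level of 5.20 in colony No.4 against 6.42 in colony No.8, a difference of 1.22 (2.33-fold), larger in size than that of 96.7% of genes past the floor. Psmb8 was at 6.08 and 6.06 and Psmb9 at 6.25 and 6.15, differences of -0.03 and -0.10. The level of Psmb10 in colony No.4 was below 5.67, the 99th percentile of olfactory receptor genes, which glioma cells are not known to use and which serve as a guide to background. Counted from 5.67, the difference of Psmb10 was 0.75 (1.68-fold), so part of the 2.33-fold lies in a range where a level may be background. Set against the subunit each replaces, Psmb10 minus Psmb7 was 1.47, Psmb9 minus Psmb6 was -0.11, and Psmb8 minus Psmb5 was -0.36. With the second Psmb6 feature, Psmb9 minus Psmb6 was -0.0024. Of the 3 pairs, only Psmb10 and Psmb7 differed by 1.5-fold or more.

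White blood cells have immunoproteasome without stimulation, so their markers are given here. Of 9 microglia and macrophage markers, 2 passed the floor, Cd68 (4.62 and 4.07) and Cd74 (4.62 and 4.72). Ptprc, Itgam, Aif1, Cx3cr1, P2ry12, Csf1r and Tyrobp were below it in both colonies. The summed linear level of the 9 markers was 125 in colony No.4 and 118 in colony No.8. Of 4 T cell markers, Cd3e, Cd3d and Cd2 were below the floor in both colonies and Lck was at 4.47 and 4.25. Their summed level was 45.2 and 43.9. Most of these values lie below the floor, and the part of such cells in the immunoproteasome levels was not tested.

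The genes next to Psmb8 and Psmb9 did not share 1 direction. On rat chromosome 20, Tap2, Psmb8, Tap1 and Psmb9 lie side by side in this order with 0 protein-coding genes between neighbours. Tap1 and Tap2 form the transporter that carries proteasome products to class I molecules. Tap1 was at 6.59 and 5.91, 1.60-fold higher in colony No.4, and Tap2 at 6.37 and 6.54. Psmb10 lies apart from this cluster, on chromosome 19.

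**Figure D3:**
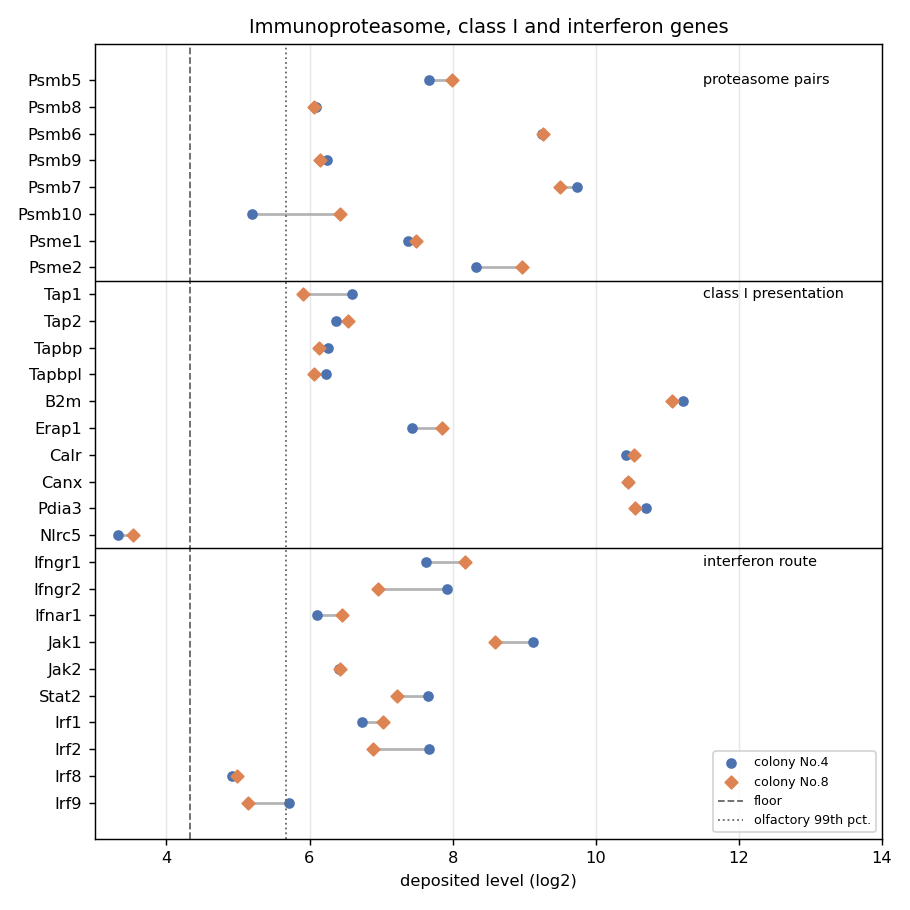
Deposited log2 level (horizontal axis) in colony No.4 (circles) and colony No.8 (diamonds), 1 array each, of the immunoproteasome subunits beside the subunits they replace and of Psme1 and Psme2 (top), class I presentation genes (middle) and interferon pathway genes (bottom). Psmb10 and Psme2 are higher in colony No.8, while Tap1, Ifngr2 and Irf2 are higher in colony No.4.

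The tissue-specific subunit Psmb11, which the thymus uses, was at 3.84 and 4.17, below the floor in both colonies. It lies next to Psmb5 on chromosome 15. No fold is given for it.

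The base of the regulatory particle held 3 of the 6 genes called apart, 33.3% of its 9 genes against 9.87% of all genes past the floor. All 9 base subunits were on the colony No.8 side, against 53.2% of all genes past the floor. Their median difference was 0.22. The 6 ATPases form a ring that pulls substrates into the core, and their median was 0.41 (1.33-fold). Psmc2 had a level of 8.36 in colony No.4 against 9.12 in colony No.8 (difference 0.76, 1.69-fold). Psmc5 was at 7.24 and 7.93 (0.69, 1.61-fold). Psmc4 was at 7.84 and 8.45 (0.61, 1.52-fold), just past the threshold. Of these 3, only Psmc2 stayed at 1.5-fold with 64 added on the linear scale, and a floor of 8 left out Psmc5. The other 3 ATPases differed less: Psmc3 by 0.22, Psmc1 by 0.19, and Psmc6, at 9.08 and 9.12, by 0.03.

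The ATPases enter the ring as pairs, and the members of a pair differed alike in some pairs only. Psmc4 and Psmc5 form one pair, and both were among the genes at 1.5-fold. Psmc1 and Psmc2 form another, and only Psmc2 was. Psmc3 and Psmc6 form the last, and neither was. Among the other base subunits, the scaffold Psmd1 was at 8.96 and 9.41 (0.45). The second scaffold Psmd2 differed by 0.12, and the ubiquitin receptor Psmd4, at 7.28 and 7.32, by 0.04. The feature of the pseudogene Psmd1-ps1 was at 5.18 and 5.83 (0.65). Whether the features of the gene and its copy share signal was not tested.

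Among the role groups of 3 or more genes, the lid had the least spread. Its 8 subunits had differences between -0.04 and 0.25, with a median of 0.05 and an SD over subunits of 0.09, against an SD of 0.30 over the 6 ATPases and 0.53 over all genes past the floor. None of the 8 reached 1.5-fold, against 17.8% of all genes past the floor in either direction. Psmd7, a structural partner of the lid's deubiquitinase, had the highest difference, at 8.57 and 8.82. The deubiquitinase itself, Psmd14, was at 9.0 and 9.05. Psmd13 had the lowest difference, at 8.95 and 8.92. Psmd12, Psmd6 and Psmd11 differed by 0.14, 0.09 and 0.05. Psmd3 was listed at 9.18 and Psmd8 at 6.62 in both colonies, identical in every deposited digit. Such exact ties occurred for 1320 of 36685 features (3.60%), and for 0.52% of features with 1 symbol at 6 or more in colony No.4. The origin of such ties was not tested.

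**Figure D4:**
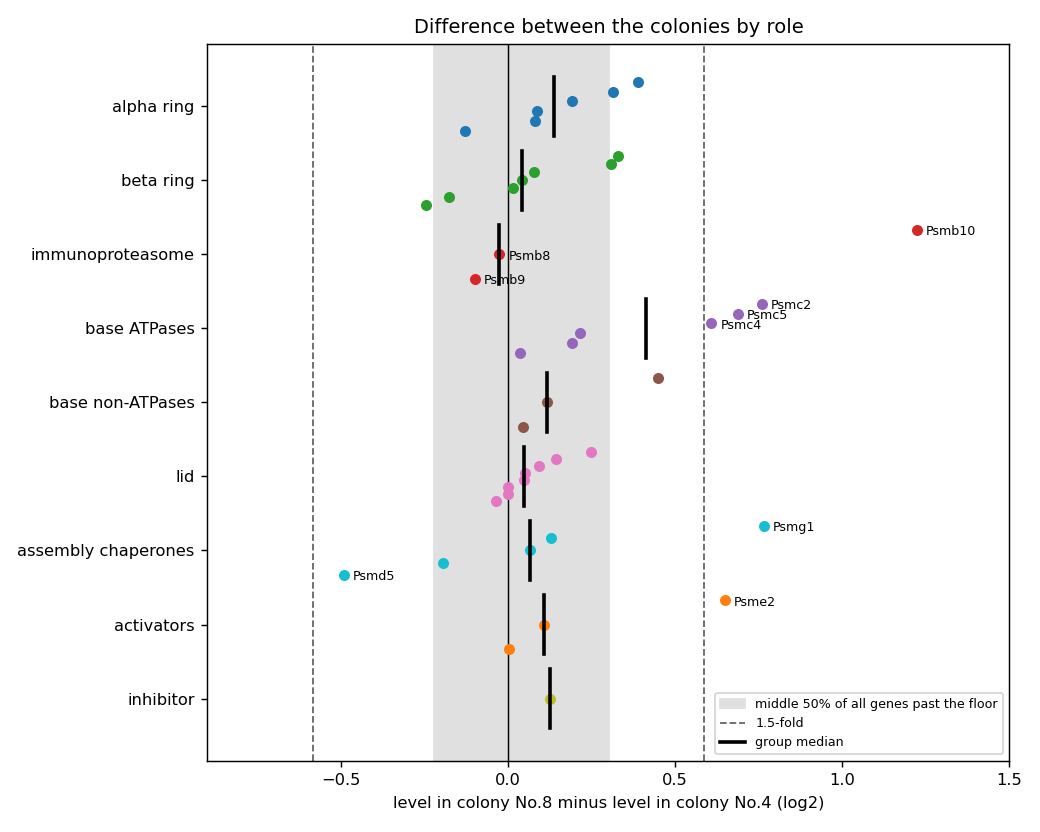
Difference between the colonies (horizontal axis, log2, colony No.8 minus colony No.4) of the 42 proteasome genes past the floor, 1 point per gene, by role; black bars are group medians, the grey band is the middle 50% of all genes past the floor (-0.22 to 0.30) and dashed lines mark 1.5-fold. The 6 genes right of the band and past 1.5-fold are Psmb10, Psmc2, Psmc4, Psmc5, Psmg1 and Psme2, and the 8 lid points lie within the band.

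Assembly chaperones, which build the particle but are not part of it, were split. Psmg1 had a level of 6.99 in colony No.4 against 7.75 in colony No.8 (0.77, 1.70-fold). Psmg2, its obligate partner in the chaperone that starts the alpha ring, was at 6.20 and 6.0 (-0.20). Psmg1 minus Psmg2 was 0.96 (1.95-fold). Psmg4, of the second alpha-ring chaperone, differed by 0.13. Of the base chaperones, Psmd9, which binds Psmc3 and Psmc6, was at 7.53 and 7.60. Psmd5, which binds Psmc1, Psmc2 and Psmd2 and holds back their assembly, was at 8.43 and 7.93 (-0.49, 1.41-fold higher in colony No.4). This was the lowest difference of all 42 genes. Within the Psmd5 group, the chaperone was lower in colony No.8 while Psmc1, Psmc2 and Psmd2 were higher there, by 0.19, 0.76 and 0.12. This was not particular to the group: all 9 base subunits were higher there, those outside it by 0.03 to 0.69. A relation between Psmd5 and these subunits was not tested.

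The activators open the core in place of the regulatory particle. Psme1 and Psme2 form the interferon-inducible activator together, and they differed unequally. Psme2 had a level of 8.32 in colony No.4 against 8.97 in colony No.8 (0.65, 1.57-fold), and Psme1 at 7.38 and 7.49 (0.11). Psme2 minus Psme1 was 0.54 (1.45-fold), although both lie on chromosome 15 with 1 protein-coding gene between them. Psme2 has several pseudogene copies in the rat genome, and whether they share signal with its feature was not tested. Psme4, the activator of the nucleus that acts in DNA repair and in sperm cells, was at 8.74 in both colonies (difference 0.00). Psmf1, which binds and inhibits the core, was at 7.84 and 7.97.

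Other genes with a matching symbol are not subunits. Psmc3ip, a factor of meiotic recombination that was named for binding Psmc3, was at 7.24 and 6.96. Psme3ip1, which binds Psme3, was at 7.21 and 7.05. Psmb3l2 (3.10 and 2.31) and the pseudogene Psma6-ps1 (2.83 and 2.79) were below the floor in both colonies.

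Partners of the proteasome outside the symbol rule went in both directions. Of 13 listed genes 10 were measured, and 3 were higher and 7 lower in colony No.8, with a median of -0.08 against 0.04 over all genes past the floor. Their difference from the subunits was not tested. Adrm1, a ubiquitin receptor that docks on Psmd1, was at 8.10 and 8.70 (1.52-fold), the only partner past 1.5-fold, a share near the background of 9.87%. Uchl5, the deubiquitinase that Adrm1 recruits, was at 7.19 and 6.84. Fbxo7, which binds Psmf1, was at 8.27 and 7.73. Pomp, the maturation factor of the core, was at 9.0 and 8.96, and the lid subunit Sem1 at 7.65 and 7.83.

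Genes that charge ubiquitin or carry substrates to the proteasome had a median close to that of all genes. Of 14 listed genes 9 were measured, with a median of 0.03, against 0.04 over all genes past the floor. At 1.5-fold there were 0, against 9.87% of all genes past the floor higher in colony No.8 and 7.93% in colony No.4. Differences under 0.25 in size were found for 6 (66.7%, against 47.8%). The activating enzyme Uba1 was at 9.59 and 9.55, and Vcp, the unfoldase that extracts substrates, at 9.46 and 9.60. Its cofactors Ufd1 and Nploc4 differed by 0.25 and 0.27. Ubqln1, a shuttle factor, was at 9.17 and 8.87.

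Transcription factors of proteasome genes differed in both directions. Nfe2l1, the factor that raises proteasome genes when the proteasome is blocked, was at 8.70 and 8.43. Ddi2, the protease that activates it, was at 7.54 and 7.24, and Ngly1, which removes its sugars, at 5.25 and 5.75. Nfe2l2 (NRF2) was at 11.0 and 10.42, a difference of -0.58 that was just short of 1.5-fold. Of the subunits of the CCAAT-binding factor, Nfyc was at 6.99 and 7.71 (1.64-fold), and Nfya and Nfyb differed by -0.33 and 0.13. The list as a whole had a median of -0.27 over 7 genes.

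Class I presentation and interferon genes went in both directions. The medians of those past the floor were -0.12 and -0.21, against 0.04 over all genes past the floor. Over all genes past the floor, 9.87% were higher by 1.5-fold or more in colony No.8 and 7.93% in colony No.4. Of 10 measured class I genes 9 passed the floor; 0 were 1.5-fold higher in colony No.8 and 1, Tap1, was 1.5-fold higher in colony No.4. B2m, the light chain of class I molecules, was at 11.22 and 11.07. Erap1, which trims peptides for class I molecules, was at 7.43 and 7.85. Nlrc5, a transactivator of class I genes, was below the floor in both colonies. Of 10 measured interferon pathway genes, 5 were higher in each colony, 0 were 1.5-fold higher in colony No.8 and 2 were in colony No.4. These were Ifngr2, a chain of the interferon gamma receptor, at 7.92 and 6.96 (1.94-fold), and Irf2, at 7.67 and 6.89 (1.72-fold). Among those higher in colony No.8, Ifngr1, the other chain of that receptor, was at 7.63 and 8.18, and Ifnar1 at 6.10 and 6.45. Irf1, which induces immunoproteasome genes, was at 6.73 and 7.03. Among those higher in colony No.4, Jak1 was at 9.13 and 8.59, Stat2 at 7.65 and 7.23, and Irf9 at 5.71 and 5.14. Of the 10 interferon genes, 5 had differences of -0.25 or less (50%, against 22.8% of all genes past the floor). These 5 include Irf9, whose level in colony No.8 lay in the range where a level may be background. With levels raised as for Psmb10, the difference of Irf9 was -0.03, so the 50% rests partly on a gene near background. Differences of 0.25 or more were found for 3 (30%, against 29.4%).

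Promoter sequences were set beside these values for the 6 genes at 1.5-fold and for 3 more. These were the other immunoproteasome subunits, Psmb8 and Psmb9, and Psme1, the partner of Psme2. Each sequence runs from 250 bases before to 50 bases after the gene's start, from RefSeq on build GRCr8, 5′ to 3′ on the gene's strand. Capitals mark matches, on either strand, to the interferon-stimulated response element core (GAAA, then 2 bases of any kind, then GAAA), the gamma-activated site (TTCNNNGAA), the antioxidant response element core (TGACNNNGC), the CCAAT box (CCAAT) and the ETS core (CGGAAG). The gamma-activated site reads the same on both strands and was counted once, and matches of different motifs may overlap. The first set is the immunoproteasome and its activator, shown because Psmb10 and Psme2 were past 1.5-fold and Psmb8, Psmb9 and Psme1 were not.
Psmb10, chr19:50743243-50743542, - strand: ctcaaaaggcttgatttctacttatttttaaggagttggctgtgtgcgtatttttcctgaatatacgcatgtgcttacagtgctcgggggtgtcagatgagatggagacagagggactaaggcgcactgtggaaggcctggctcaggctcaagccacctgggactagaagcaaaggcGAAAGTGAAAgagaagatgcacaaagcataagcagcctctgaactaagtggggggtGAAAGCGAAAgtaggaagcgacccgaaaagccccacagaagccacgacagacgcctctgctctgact
Psmb8, chr20:4656982-4657281, - strand: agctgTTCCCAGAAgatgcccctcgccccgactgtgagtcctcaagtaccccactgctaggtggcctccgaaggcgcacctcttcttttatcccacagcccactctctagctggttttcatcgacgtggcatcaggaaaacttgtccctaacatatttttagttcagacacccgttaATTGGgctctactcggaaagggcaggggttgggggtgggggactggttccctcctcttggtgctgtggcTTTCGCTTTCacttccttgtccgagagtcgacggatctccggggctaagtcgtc
Psmb9, chr20:4668750-4669049, + strand: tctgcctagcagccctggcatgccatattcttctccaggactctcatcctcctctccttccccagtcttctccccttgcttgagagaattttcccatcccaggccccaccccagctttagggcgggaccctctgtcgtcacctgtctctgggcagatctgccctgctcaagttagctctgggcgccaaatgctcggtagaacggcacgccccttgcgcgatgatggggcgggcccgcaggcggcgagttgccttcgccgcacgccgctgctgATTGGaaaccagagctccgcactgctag
Psme2, chr15:33052702-33053001, - strand: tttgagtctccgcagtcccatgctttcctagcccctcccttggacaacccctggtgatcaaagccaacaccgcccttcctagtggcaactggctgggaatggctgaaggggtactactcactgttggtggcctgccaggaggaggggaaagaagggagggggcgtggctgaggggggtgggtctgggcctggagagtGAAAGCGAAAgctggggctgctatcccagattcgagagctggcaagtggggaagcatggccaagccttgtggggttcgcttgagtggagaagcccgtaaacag
Psme1, chr15:33038721-33039020, + strand: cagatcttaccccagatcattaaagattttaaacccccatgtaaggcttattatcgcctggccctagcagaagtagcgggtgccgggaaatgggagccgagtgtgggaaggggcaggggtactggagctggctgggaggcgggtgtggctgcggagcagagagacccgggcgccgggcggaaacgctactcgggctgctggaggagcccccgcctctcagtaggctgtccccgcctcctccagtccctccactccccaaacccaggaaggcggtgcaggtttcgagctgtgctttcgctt
In this set, Psmb10 had 2 matches to the interferon core, from base -73 and from base -17, Psme2 had 1 from base -53, and Psmb8 had 1 across the start. Psmb9 and Psme1 had none in these windows. The Psme1 window ends in tttcgctt, the letters that open a match on the other strand, and bases beyond its edge were not searched. With its match in Psmb8, the motif did not separate the genes past 1.5-fold from the others of this set.

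The second set holds the ATPases at 1.5-fold and the chaperone Psmg1, shown because they were higher in colony No.8 together.
Psmc2, chr4:14162341-14162640, - strand: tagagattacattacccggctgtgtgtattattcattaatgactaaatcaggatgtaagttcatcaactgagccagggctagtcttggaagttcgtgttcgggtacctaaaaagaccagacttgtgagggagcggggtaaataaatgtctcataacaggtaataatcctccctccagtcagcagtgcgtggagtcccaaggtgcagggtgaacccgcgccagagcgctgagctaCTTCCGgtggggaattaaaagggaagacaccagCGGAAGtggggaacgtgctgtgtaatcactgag
Psmc4, chr1:92485011-92485310, - strand: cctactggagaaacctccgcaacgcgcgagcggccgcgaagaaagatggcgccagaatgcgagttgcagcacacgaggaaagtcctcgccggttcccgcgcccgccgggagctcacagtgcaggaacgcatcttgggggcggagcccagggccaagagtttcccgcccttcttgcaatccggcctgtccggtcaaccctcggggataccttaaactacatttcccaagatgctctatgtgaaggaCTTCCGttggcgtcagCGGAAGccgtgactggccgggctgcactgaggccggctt
Psmc5, chr10:91687303-91687602, + strand: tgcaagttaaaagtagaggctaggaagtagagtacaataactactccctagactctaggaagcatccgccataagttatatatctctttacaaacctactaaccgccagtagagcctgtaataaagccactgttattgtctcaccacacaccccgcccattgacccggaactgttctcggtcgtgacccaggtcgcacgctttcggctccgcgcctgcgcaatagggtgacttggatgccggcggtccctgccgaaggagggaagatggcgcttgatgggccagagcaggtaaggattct
Psmg1, chr11:48754991-48755290, - strand: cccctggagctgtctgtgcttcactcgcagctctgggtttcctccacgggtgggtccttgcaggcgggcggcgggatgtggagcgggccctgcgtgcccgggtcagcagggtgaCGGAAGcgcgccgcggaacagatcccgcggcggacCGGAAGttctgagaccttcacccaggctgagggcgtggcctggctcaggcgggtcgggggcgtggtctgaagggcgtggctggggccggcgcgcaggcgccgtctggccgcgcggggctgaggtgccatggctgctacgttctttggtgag
Psmc2, Psmc4 and Psmg1 each had 2 matches to the ETS core and none to the other motifs, and Psmc5 had no match at all. The ETS core was added to the search after these windows had been seen.

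Over all members, promoter windows were found for 38 of the 43 genes, 1 window per gene. The interferon core was present in 7 of the 38 (18.4%), against 3.77% of all 27457 gene windows and 2.90% of those of genes past the floor. The 7 were Psma4, Psmb3, Psmb8, Psmb10, Psmd7, Psme2 and Psmg4. Their median difference was 0.19, against 0.08 for members without it. The ETS core was in 19 of the 38 windows (50%), against 17.4% of all windows and 31.4% of those of genes past the floor. Members with and without it had median differences of 0.08 and 0.11. The antioxidant core was in 7 windows (18.4%, against 12.2% of all and 14.4% past the floor). These were Psmb2, Psmb5, Psmb6, Psmd1, Psmd3, Psmd9 and Psme4. The CCAAT box was in 17 (44.7%, against 37.7 and 38.3%) and the gamma-activated site in 4 (10.5%, against 8.68 and 6.48%). Members with and without the antioxidant core had medians of 0.04 and 0.11. For the CCAAT box they were 0.07 and 0.12, and for the gamma-activated site 0.02 and 0.10. The members' windows had a median GC content of 56.5%, against 52.3% for all windows and 60.7% for genes past the floor, and a match is a description of letters, not a bound site.

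**Figure D5:**
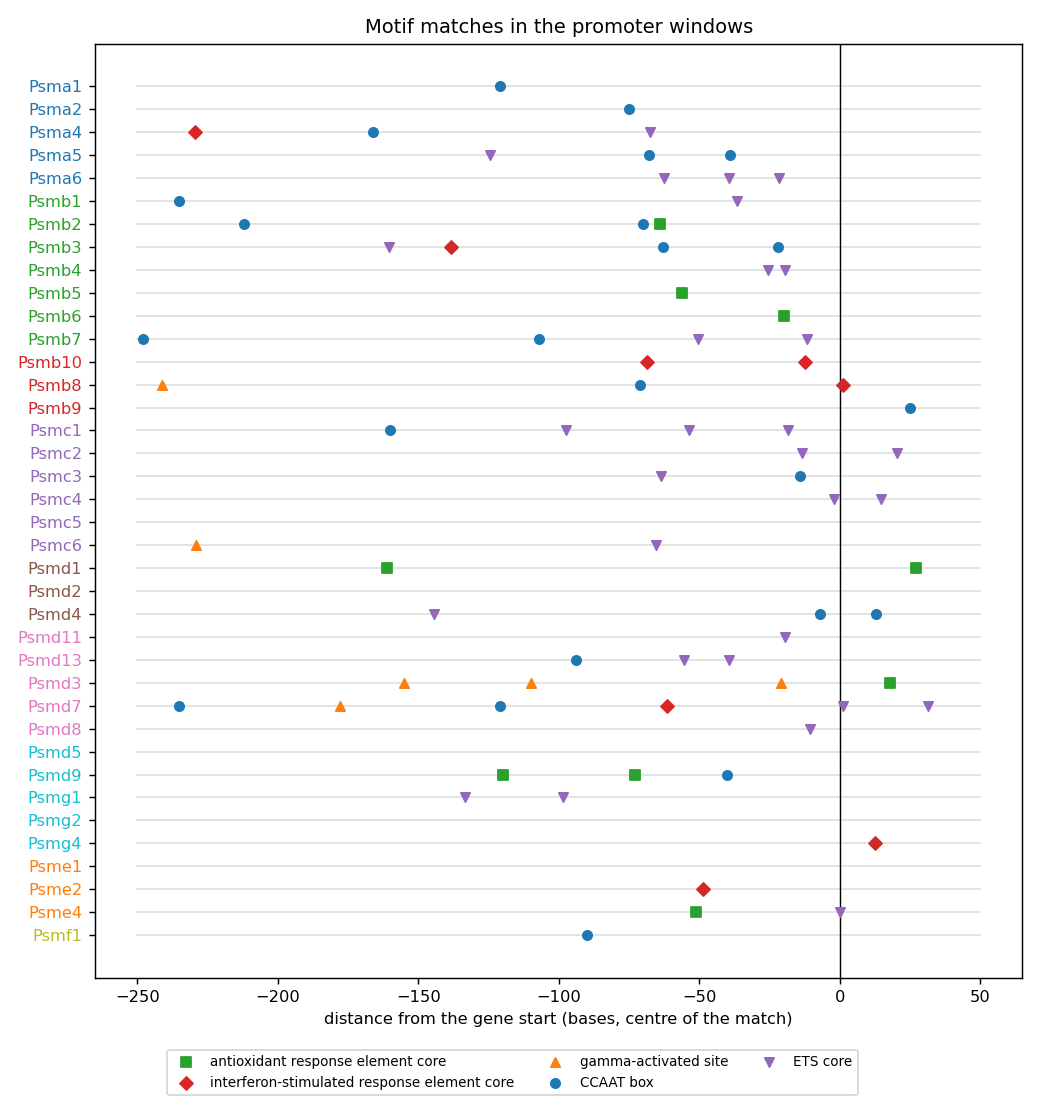
Matches to 5 motifs (symbols, at the centre of each match) in the promoter windows of 38 proteasome genes (rows, coloured by role as in the level plot), by distance from the gene start in bases (horizontal axis, 0 is the start). Interferon core matches (red diamonds) appear in 7 rows and ETS core matches (purple triangles pointing down) in 19.

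Beside other gene families, the proteasome's direction was not common to all. Cytosolic ribosomal protein genes were taken by symbol alone, so copy genes with such a symbol were not kept apart as they were for the proteasome. Of 124 measured, 97 passed the floor, with a median of -0.22. Of the 97, 13 were higher in colony No.8 (13.4%, against 53.2% of all genes past the floor). The 8 genes of the cytosolic chaperonin, a ring that folds proteins, had a median of 0.20. Of these, 5 were higher in colony No.8 (62.5%), and 0 were at 1.5-fold, against 17.8% of all genes past the floor in either direction. The 25 ubiquitin-conjugating enzyme genes past the floor had a median of -0.11, with 12 higher in colony No.8 (48%). The chaperonin and conjugating enzyme shares were near the 53.2% of all genes past the floor. These families were set beside the proteasome after its values had been seen, and with 1 array per colony the differences between families were not tested.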

How the data were processed

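Total RNA of 2 C6 colonies was measured on 1 array each, labelled with biotin by a whole-transcript kit, per the labels' protocols. The deposited table holds 1 value for each of 36685 features and colony. The deposited values were taken as log2 levels; base 2 was inferred from the largest value, 13.3, and no source used here says how the authors corrected background or normalized. The colonies' medians were 4.34 and 4.31, so no scaling was added. Platform annotation gave 18511 features exactly 1 symbol, 575 several and 17599 none, and only the first were used. The symbols of all 48 members matched RefSeq. The brightest feature stood for a gene. No test was possible. Genes named are all members, and in other lists up to 4 genes at 1.5-fold; others are named to describe a list. The members, lists and floor were chosen with earlier results of these data known. Counting steps were tested on simulated data. Python 3.11.15, pandas 2.3.3 and statsmodels 0.14.6 were used. Alternatives covered scaling, floor, feature choice, an offset and the fold.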

Additional observations from a re-analysis of the deposited data

How the results depend on the processing

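The median difference of the proteasome genes stayed positive in all 12 alternatives, from 0.06 to 0.17. The share higher in colony No.8 stayed between 71.4 and 82.1% in 11. Several of these alternatives could change little by construction. Floors at 5.67 and in both colonies kept the same 42 genes, only Psmb6 has a second feature, and an offset keeps every sign. The count of 6 genes at 1.5-fold higher in colony No.8 was 3 with a floor of 8, which leaves fewer genes, and 1 with 64 added on the linear scale, as it was 1 at 2-fold. Centring on the median of all genes lost Psmc4. At the lower fold threshold tried, 9 genes were higher in colony No.8 and 1, Psmd5, in colony No.4, against 23.4 and 18.1% of all genes past the floor. The difference of Psmb10 was 0.57 with the offset and 0.75 with levels raised to 5.67, an alternative chosen after seeing the data; Psmb10 minus Psmb7 was then 0.80 and 0.99. The differences of Psmb8 and Psmb9 could not change sign with the feature choice, the offset or the raised levels. Each gene has 1 feature and lies above 5.67 in both colonies, and an offset keeps the order of 2 values. With centring, quantile normalization and removal of a trend with level, Psmb8 was -0.06, -0.0030 and -0.07. Psmb9 was then -0.13, -0.08 and -0.14. The offset shrinks differences of dim genes by construction. No paired analysis was possible because each colony has 1 array. No detection call was used, so how far a level lies above background is unknown. Raised to 5.67, the differences of Psmd1-ps1, Ngly1 and Irf9 were 0.16, 0.08 and -0.03.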
